A study of Mus musculus with 58 samples.

Results

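Early-life fluoxetine was compared with vehicle in mice heterozygous for Tanc2, by RNA sequencing of the prefrontal cortex. Libraries were chosen by their labelled genotype and drug, which gave 20 of the 58 in the series: 10 from fluoxetine-treated heterozygotes (5 females and 5 males) and 10 from vehicle-treated heterozygotes (5 females and 5 males). All mice of both groups were C57BL/6J, heterozygous, and sampled on postnatal day 25. Drug or vehicle had reached the pups through the milk of the mother from postnatal day 3 to 24. The Tanc2 allele, the dose, the make-up of the vehicle and the litters are not given in the sources used here, and the fluoxetine was given to dams, so mice of one litter share an exposure that the labels do not mark. Nothing in the labels says that replicates came from separate animals, and p-values measure the spread between these libraries. A further 19 libraries of wild-type mice on fluoxetine or vehicle served for one comparison of genotypes. Every gene with at least 10 normalized reads in at least 4 of the 58 libraries was kept, 17925 of 18088.

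Fluoxetine is an antidepressant that blocks the serotonin transporter and so prolongs the action of released serotonin. Tanc2 encodes a scaffold protein of the postsynaptic density. Neurons respond to synaptic input by transcribing immediate early genes, a class that needs no new protein synthesis to start, and the transcription factors CREB and SRF carry calcium and kinase signals to many of their promoters. The endoplasmic reticulum answers a load of unfolded protein through the sensors IRE1, PERK and ATF6, which raise chaperones and folding enzymes, in part through a paired promoter element.

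Values are normalized reads, meaning reads divided by a size factor of the library, and changes are log2 differences of value + 1 with a standard error (SE) from one limma fit over all 58 libraries with both sexes weighed equally. Adjusted p is Benjamini-Hochberg over all genes kept, and a gene "passed" at an adjusted p under 0.05. Depth over the 20 libraries was 23271044 to 34849797 reads (median 28223489). The median SE of a log2 change was 0.0685 over both sexes and 0.0968 within one. One feature of the libraries goes with a group: the 5 fluoxetine females held 61.0, 82.8, 106.2, 208.9 and 230.3 normalized reads of the gene model Gm10221, and the other 15 libraries held 0. In the same 5 libraries mt-Atp6, a mitochondrially coded subunit of ATP synthase, lay between 48156 and 65131, above its highest value of 34066 in the other 15. Within these heterozygous females, fluoxetine and this feature cannot be told apart. Male values and a fit with Gm10221 as a term therefore stand beside the results they touch. That fit takes sex as an additive term. With additive sex and no Gm10221 term 639 genes passed. No vehicle library of the series and every library from its lithium-treated mice held Gm10221 reads, so fluoxetine libraries alone set the term. Among fluoxetine heterozygotes the reads go with sex, so the term takes up part of any difference between female and male drug effects. A call lost under it does not tell the feature from an effect of the drug in females. The error within males is wider than over both sexes, so list medians stand beside the counts in both settings. Cortical markers were present throughout: the neuronal gene Rbfox3 ran from 5998 to 8042 and Slc17a7, the vesicular glutamate transporter of cortical excitatory neurons, from 40510 to 56085. Markers of neighbouring regions varied widely. Doc2g, of the olfactory bulb, ran from 28.7 to 2096 with its highest value in vehicle female 3, and Adora2a, of the striatum, from 46.3 to 623 with its highest value in fluoxetine male 3. In bulk tissue, fewer cells of a type and less RNA per cell cannot be told apart.

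Tanc2 itself did not pass between the groups. Its level ran from 7683 to 8636 with a median of 7984 in the vehicle mice and from 7414 to 8831 with a median of 8160 in the fluoxetine mice, and the log2 change was −0.01 ± 0.04 (SE; 95% interval −0.09 to 0.08; adjusted p = 0.961). The gene lies at chr11:105589986-105929304 (GRCm38). Since both groups are heterozygous and the deleted part is not given, this level does not check the genotype label.

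Over both sexes 635 genes passed (3.54% of 17925), 261 higher (1.46%) and 374 lower (2.09%). Most of these changes were small: the median absolute log2 change was 0.219, 64 of the 635 exceeded 1.5-fold, and 40 of those 64 were lower. For 47 genes (0.262%) the 10 fluoxetine and 10 vehicle values did not overlap at all. Of these 47, 36 were lower and 11 higher, and 45 passed. Within females 192 genes passed higher (1.07%) and 255 lower (1.42%), and within males 9 higher (0.0502%) and 28 lower (0.156%).

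Transcription factors of the immediate early class were the group that fell most clearly. Of 27 measured, 13 fell and 2 rose, beside 2.09% and 1.46% of all genes. The median log2 change was −0.33 against 0.0031 over all genes. The drop was present in both sexes, with a median of −0.34 in females and −0.42 in males, though 5 members passed as lower in females and 3 in males.

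Nr4a1, an orphan nuclear receptor induced by calcium signals, ranged from 1710 to 3238 with a median of 2202 in the vehicle mice and from 1003 to 2007 with a median of 1198 in the fluoxetine mice. Its log2 change was −0.95 ± 0.13 (SE, adjusted p = 2.04e-06), with −1.11 in females and −0.80 in males. All fluoxetine mice but male 3, at 2007, lay below the lowest vehicle mouse. Junb, a partner in the AP-1 dimer, went from 860 to 1607 (median 1206) on vehicle and from 458 to 1048 (median 671) on fluoxetine, a change of −0.89 ± 0.14 (adjusted p = 4.68e-05). Fosb, of the same dimer family, fell by 0.86 ± 0.16 (adjusted p = 0.000643), from a median of 460 to one of 245. For both genes the groups overlapped, and fluoxetine male 3 held the highest treated value. Klf10, a zinc finger factor of the TGF-beta early response, did not overlap between groups: 864 to 1416 on vehicle (median 1128) and 478 to 753 on fluoxetine (median 603), with −0.82 ± 0.11 (adjusted p = 2.61e-06). Fos itself fell by 0.95 ± 0.21 (adjusted p = 0.005), from 902 ± 237 to 487 ± 221 (SD, n = 10), and Egr2, a zinc finger factor of the EGR family, by 1.08 ± 0.25 (adjusted p = 0.00652). With Gm10221 as a term Fos stood at −0.72 and Egr2 at −0.77, and neither passed.

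The class did not move as a block. Egr1, the best known member of the EGR family, changed by −0.32 (adjusted p = 0.322), Npas4, which responds to calcium alone, by −0.48 (adjusted p = 0.173), and Jun by −0.17 (adjusted p = 0.107). Egr3, Egr4 and Nr4a2 lay between −0.15 and −0.12 and did not pass. The 2 members that rose were Klf6, described below, and Jund, a constitutive AP-1 subunit, at 0.25 (adjusted p = 0.0316). Of these calls 6 were close to the threshold: Atf3, Ier2, Btg2, Bhlhe40, Nr4a3 and Jund lost theirs in 6 to 15 of 20 fits that each left out 1 library.

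Among activity-induced effector genes 9 of 30 fell and 0 rose, beside 2.09% of all genes that fell, with a list median of −0.06. Arc, whose product goes to active synapses and drives removal of AMPA receptors, showed the largest drop of this list. The vehicle mice held 6148, 4196, 4105, 2011 and 5462 normalized reads in females and 4141, 2910, 3008, 2999 and 3324 in males. The fluoxetine mice held 1043, 1214, 1426, 958 and 1625 in females and 636, 730, 2772, 809 and 1124 in males. Only fluoxetine male 3, at 2772, reached into the vehicle range. The log2 change was −1.70 ± 0.24 (SE, adjusted p = 4.56e-06), with −1.74 in females and −1.65 in males, each of which passed. Arc lies at chr15:74669083-74672570.

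Sik1, a kinase that restrains the CREB coactivators, fell by 0.89 ± 0.12 (adjusted p = 2.15e-06), from a median of 503 to one of 300. Arl4d, a small GTPase of the ARF family, did so by 0.67 ± 0.09 (adjusted p = 1.64e-06) without overlap: 428 to 562 on vehicle and 254 to 416 on fluoxetine. Trib1, Midn, Gadd45b, Tiparp, Sgk1 and Ccn1 fell by 0.28 to 0.54, and Ccn1 lost its call in 15 of the 20 fits without 1 library. Others of the list that are classic activity genes did not pass, among them Bdnf at 0.08 (adjusted p = 0.702), Homer1 at 0.20 (0.207), Nptx2 at 0.02 (0.931) and Vgf at 0.11 (0.558). Bdnf and Homer1 are counted over all transcripts of the gene, so their short activity-driven forms were not seen separately.

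Feedback regulators of the ERK and EGR pathways followed in part, with 5 of 19 lower and 0 higher, beside 2.09% of all genes that fell. Nab2, a corepressor that binds EGR proteins, ranged from 980 to 1178 (median 1123) in vehicle mice and from 659 to 843 (median 769) in fluoxetine mice, and the 2 groups did not overlap. Its log2 change was −0.54 ± 0.06 (adjusted p = 1.6e-08), with −0.59 in females and −0.49 in males. Dusp1, a phosphatase of p38 and JNK, fell by 0.77 ± 0.13 (adjusted p = 0.000259), from 737 ± 219 to 425 ± 92.2 (SD, n = 10). Errfi1, Spry4 and Dusp5 fell by 0.22 to 0.57. Dusp5 lost its call without fluoxetine female 4 or vehicle female 3.

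**Figure D1:**
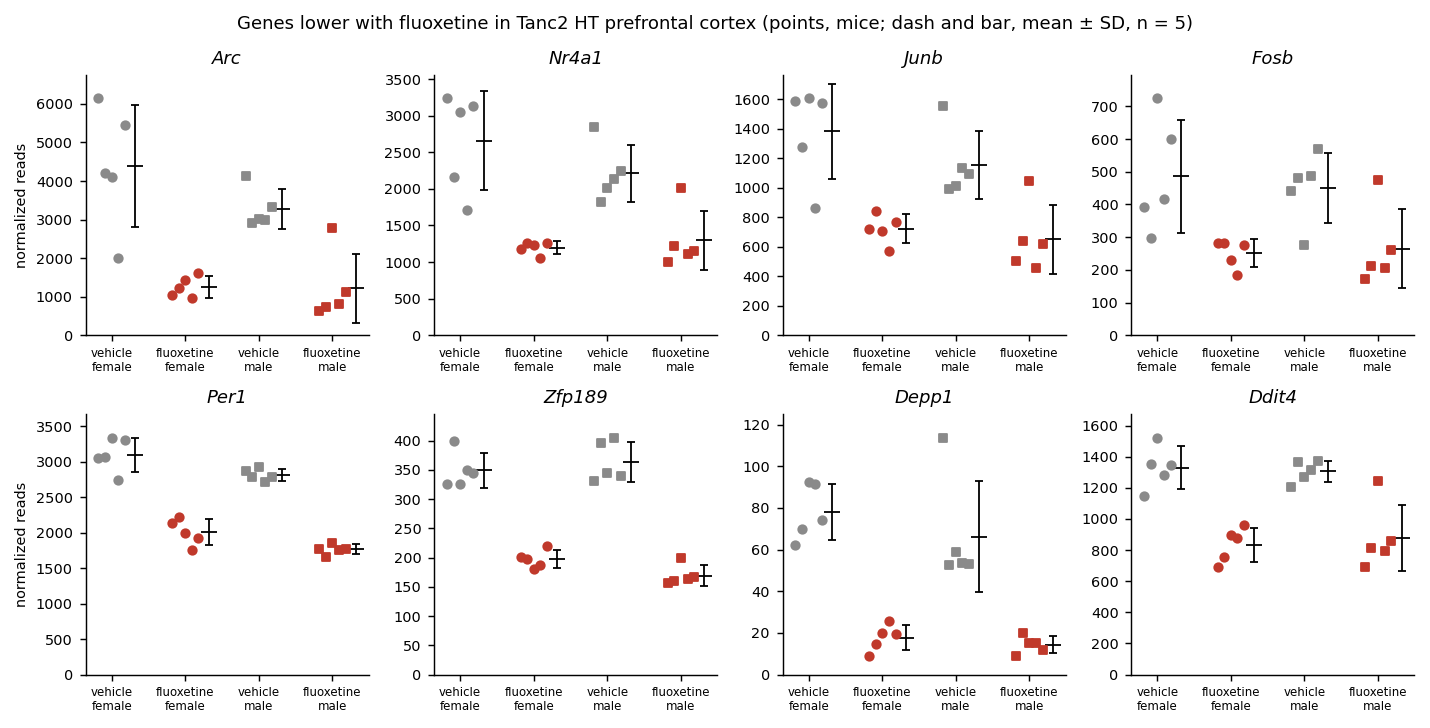
Normalized reads (linear axis from 0) of 8 genes that fell, for each mouse, in vehicle (grey) and fluoxetine (red) heterozygotes of each sex, with mean ± SD beside the points (n = 5). Per1, Zfp189 and Depp1 do not overlap between vehicle and fluoxetine, while Arc, Nr4a1 and Fosb have 1 fluoxetine male well above the other 4.

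The count of immediate early factors that fell was the least stable of these counts. It ran from 8, without fluoxetine female 4 or without vehicle female 3, to 15 without fluoxetine male 3. With Gm10221 as a term it came to 5, with a list median of −0.28, in a fit where 136 of all 17925 genes fell. The male effect gave 3 in the main fit and 2 when refitted on the 31 libraries without Gm10221 reads. Over all genes 28 and 36 fell in these fits. The list median was −0.42 in both. Arc, Nr4a1, Klf10, Junb, Sik1, Arl4d and Nab2 passed within each sex as well as over both.

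For many genes fluoxetine male 3 was the treated mouse furthest to the vehicle side. Among the 10 fluoxetine mice it held the highest value for 119 of the 374 lower genes, with male 5 next at 50. These included 9 of the 13 immediate early factors and 8 of the 9 effectors that fell. It held the lowest value for 75 of the 261 higher genes, with male 5 at 57 and male 4 at 55. The library of fluoxetine male 3 held the highest olfactory bulb marker sum of its group, 19892 against a group median of 6857. It also held the highest striatal sum, 26667 against 18493. The part of this make-up in its values was not tested. Without fluoxetine male 3, 687 genes passed.

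A cyclic AMP response element, the palindrome TGACGTCA bound by CREB, was searched in the RefSeq promoters of GRCm38.p6 from 250 bases before to 50 after each gene start. A promoter was found for 12668 of the 17925 genes, and 385 of these (3.04%) held the element, as did 15 of 276 lower genes (5.43%) and 11 of 180 higher genes (6.11%). These shares are a description with no test. Among the activity-regulated genes that fell, 3 held it, shown here 5′ to 3′ on the strand of the gene with the element in capitals; Btg2 was added after its values were seen, to complete the set.
Dusp1, chr17:26508588-26508635, minus strand: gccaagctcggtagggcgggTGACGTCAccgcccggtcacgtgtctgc
Btg2, chr1:134079294-134079341, minus strand: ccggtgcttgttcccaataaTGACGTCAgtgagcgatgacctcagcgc
Arl4d, chr11:101665495-101665540, plus strand: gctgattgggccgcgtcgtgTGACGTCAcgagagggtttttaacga
The element ended 135 bases before the start of Dusp1, 158 before that of Btg2 and 18 before that of Arl4d. Of the 12 immediate early factors that passed and had a promoter in the table, 1 held the full element and 8 held its shorter half-site TGACG, which lies within the full element and was found in 29.6% of all promoters. The half-site was as frequent over the whole list, passed or not, with 14 of 21. Of the effectors with a promoter, 5 of 23 over the whole list held the full element, and 1 of the 6 that passed.

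Several of the smallest p-values belonged to genes of other functions. Zfp189, a zinc finger transcription factor, had the smallest of all. It ranged from 325 to 405 (median 344) in vehicle mice and from 156 to 220 (median 184) in fluoxetine mice, and its log2 change was −0.96 ± 0.08 (SE, adjusted p = 2.43e-11), with −0.82 in females and −1.10 in males. The groups were far apart, with no fluoxetine mouse above 220 and no vehicle mouse below 325. The gene lies at chr4:49521176-49531517. Per1, a repressor of the circadian clock that glucocorticoids and CREB also induce, went from 2714 to 3341 (median 2896) to a range of 1661 to 2221 (median 1816), without overlap. Its log2 change was −0.65 ± 0.06 (adjusted p = 3.62e-11), with −0.63 in females and −0.67 in males. Of the 21 clock genes measured Per1 and Bhlhe40 alone passed, beside 3.54% of all genes, and the list median was −0.02.

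Depp1, a gene driven by FOXO factors and by fasting in other tissues, had the largest drop of the genes described here. Vehicle females held 62.0, 70.1, 92.5, 91.6 and 74.2 normalized reads and vehicle males 113.8, 52.4, 58.8, 53.4 and 53.0. Fluoxetine females held 9.03, 14.9, 19.99, 25.6 and 19.4, and fluoxetine males 9.12, 19.995, 15.4, 15.1 and 11.9. Every fluoxetine mouse was below every vehicle mouse, and the log2 change was −2.12 ± 0.26 (adjusted p = 3.31e-07), −2.13 in females and −2.11 in males. Ddit4, an inhibitor of mTORC1 that responds to stress hormones, fell by 0.64 ± 0.09 (adjusted p = 2.04e-06), from 1150 to 1523 on vehicle (median 1329) to 692 to 1243 on fluoxetine (median 837). Stk40, a pseudokinase, did not overlap: 1051 to 1321 on vehicle (median 1151) and 764 to 881 on fluoxetine (median 819), with −0.50 ± 0.05 (adjusted p = 1.41e-09).

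The kinases Dyrk3, at −0.55 ± 0.07 (adjusted p = 9.17e-07), and Itpkc, which phosphorylates inositol trisphosphate, at −0.46 ± 0.06 (adjusted p = 1.5e-06), also fell without overlap. The zinc finger gene Zfp366, at −0.69 ± 0.09, and the membrane lipid flippase Atp8b2, at −0.23 ± 0.03, did too. Tmem252, a membrane protein, fell by 1.13 ± 0.17, from a median of 79.3 to one of 34.5. Chrm4, the inhibitory muscarinic receptor, ranged from 324 to 414 (median 385) on vehicle and from 230 to 347 (median 257) on fluoxetine, a change of −0.50 ± 0.08 (adjusted p = 1.91e-05). It was the 1 of 14 acetylcholine receptor genes that passed, beside 3.54% of all genes.

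Among chaperones and folding enzymes of the endoplasmic reticulum calls went one way. Of 26 chaperones and folding enzymes measured, 11 rose and 0 fell, beside 1.46% of all genes that rose. In each sex 24 of the 26 lay above zero. The list median was 0.12, with 0.16 in females, where 10 passed, and 0.09 in males, where 0 passed.

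Hspa5, the chaperone BiP that holds the stress sensors inactive, held 7209, 6950, 7515, 6177 and 7187 in vehicle females and 9688, 10229, 10734, 10266 and 8622 in fluoxetine females. In males the vehicle values were 8342, 7381, 6305, 6747 and 5969 and the fluoxetine values 8143, 7732, 8868, 7373 and 7859. The female groups were apart and the male groups overlapped. The log2 change was 0.35 ± 0.06 (SE, adjusted p = 0.000142), with 0.50 in females and 0.21 in males, where the adjusted p was 0.7. Manf, a secreted neurotrophic factor held in the reticulum by BiP, ranged from 893 to 1123 (median 966) on vehicle and from 1066 to 1315 (median 1167) on fluoxetine, at 0.28 ± 0.04 (adjusted p = 1.5e-06). Pdia3, a disulfide isomerase for glycoproteins, went from 4828 to 5594 (median 5229) to a range of 5429 to 6399 (median 5994), at 0.20 ± 0.03 (adjusted p = 3.09e-05).

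Dnajc3, a cochaperone of BiP that also restrains the PERK kinase, did not overlap between groups, at 1660 to 1925 on vehicle and 1953 to 2228 on fluoxetine (0.20 ± 0.03, adjusted p = 0.000203). Erp44, which retains oxidases in the reticulum, did not overlap either (0.15 ± 0.03, adjusted p = 0.00518). Sdf2l1, Pdia4, Creld2, Pdia6, Dnajb11 and Hsp90b1 rose by 0.15 to 0.42. Canx and Calr, the lectin chaperones, stood at 0.11 and 0.12 and did not pass (adjusted p = 0.0676 and 0.084).

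The sensor arm moved less. Xbp1, the factor that IRE1 activates by splicing, rose by 0.24 ± 0.05 (adjusted p = 0.00131), from a median of 1871 to one of 2158, and Ern1, which encodes IRE1 itself, fell by 0.22 ± 0.06 (adjusted p = 0.0203), a call lost without vehicle male 2 or vehicle male 5. The third of 16 sensors and ATF4-branch genes to pass, beside 3.54% of all genes, was Cebpb at 0.35. Its call was lost in 12 of the 20 fits without 1 library. Of 16 genes of the reticulum's degradation pathway 1 rose, beside 1.46% of all genes. It was Derl3, whose call was lost in 11 of those 20 fits. In the cytosol 1 of 22 heat shock genes rose and 1 fell, beside 1.46% and 2.09% of all genes. Hsp90aa1 rose by 0.15 (adjusted p = 0.022, lost without vehicle male 5), and Dnajb5 stood at −0.22.

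With Gm10221 as a term 8 of the 26 chaperones and folding enzymes rose, in a fit where 48 of all 17925 genes rose. The list median there was 0.12, and Hspa5 stood at 0.29 (adjusted p = 0.0296). Over males alone, none of which held Gm10221 reads, 0 passed, beside 0.0502% of all genes that rose, and the list median was 0.09. In all 20 mice the mean log2 difference of the list from the vehicle mean was −0.07 to 0.07 on vehicle, 0.13 to 0.22 in fluoxetine females and 0.06 to 0.14 in fluoxetine males. The fluoxetine males thus overlapped at their edges with the vehicle mice below and the fluoxetine females above.

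**Figure D2:**
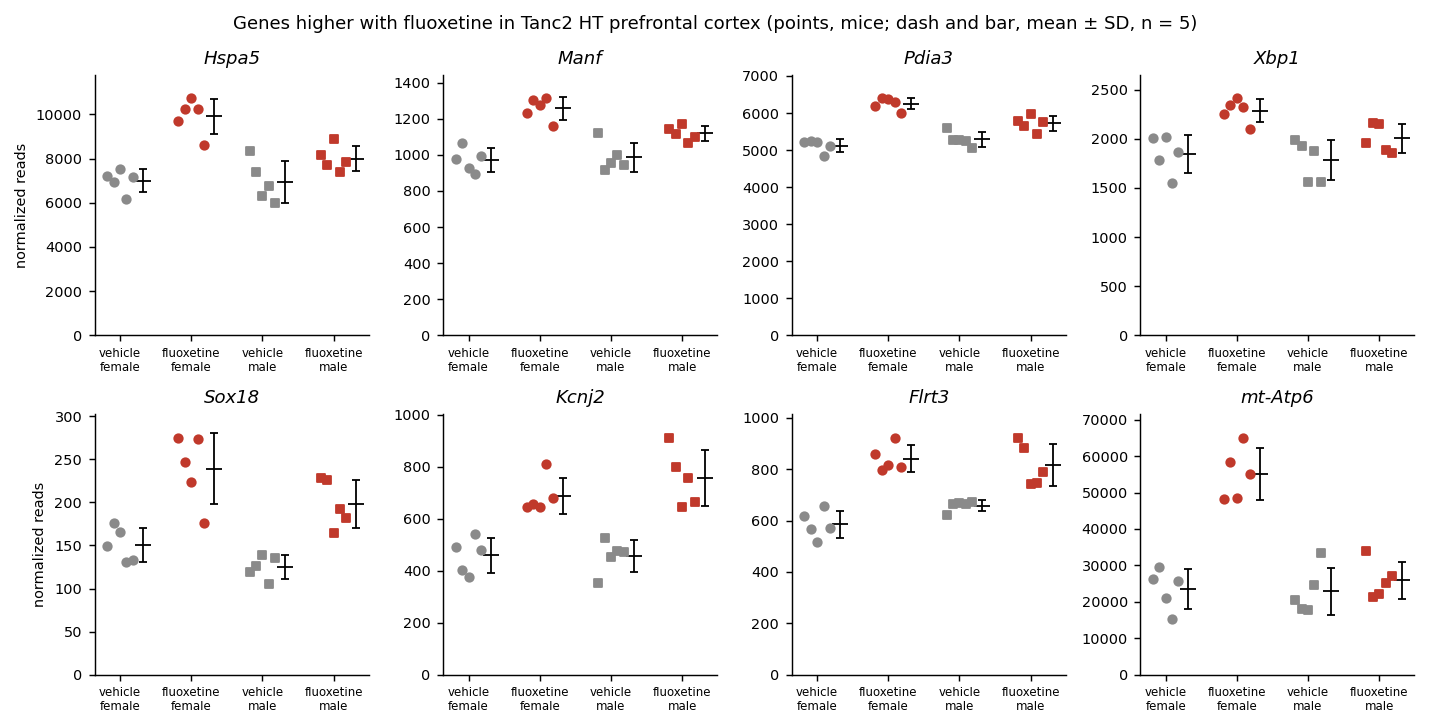
Normalized reads (linear axis from 0) of 8 genes that rose, for each mouse, in vehicle (grey) and fluoxetine (red) heterozygotes of each sex, with mean ± SD beside the points (n = 5). Hspa5, Manf and Pdia3 stand higher in fluoxetine females than in fluoxetine males, Sox18, Kcnj2 and Flrt3 are raised in both sexes, and mt-Atp6 is raised in fluoxetine females, the 5 libraries with Gm10221 reads.

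The ER stress element, CCAAT and CCACG with 9 bases between them, on either strand, is the site through which ATF6 and NF-Y act. It was found in 19 of 12668 promoters (0.150%), in 6 of 180 higher genes (3.33%) and in 0 of 276 lower genes. The 6 are 5 of the 10 chaperones and folding enzymes that passed and had a promoter in the table, and Derl3. They are shown because they are all of the higher genes with the element, 5′ to 3′ on the strand of the gene with the element in capitals; Pdia6, Creld2 and Derl3 were added after their values were seen. For Hspa5 only the element is given, since the GENCODE annotation places it in a first exon.
Hspa5, chr2:34772025-34772043, plus strand: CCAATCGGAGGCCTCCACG
Hsp90b1, chr10:86705618-86705676, minus strand: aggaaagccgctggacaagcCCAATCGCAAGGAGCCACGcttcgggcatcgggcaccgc
Hsp90b1, chr10:86705513-86705571, minus strand: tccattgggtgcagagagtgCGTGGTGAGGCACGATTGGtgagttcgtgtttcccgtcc
Pdia6, chr12:17266471-17266529, plus strand: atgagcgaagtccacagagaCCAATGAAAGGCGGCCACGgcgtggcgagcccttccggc
Dnajc3, chr14:118937807-118937865, plus strand: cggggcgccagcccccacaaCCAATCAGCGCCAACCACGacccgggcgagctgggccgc
Creld2, chr15:88819500-88819558, plus strand: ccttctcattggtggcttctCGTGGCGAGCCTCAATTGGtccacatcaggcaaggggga
Derl3, chr10:75893222-75893280, plus strand: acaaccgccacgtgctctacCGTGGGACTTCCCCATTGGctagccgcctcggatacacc
The element ended between 46 bases (Hspa5) and 193 bases (the distal copy of Hsp90b1) before the RefSeq start. Among the 20 chaperones and folding enzymes with a promoter, passed or not, 7 held it.

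Genes of the vessel wall rose in part. Of 28 endothelial markers 6 rose and 0 fell, beside 1.46% of all genes that rose, with a list median of 0.09. Foxq1, a forkhead factor, ranged from 52.4 to 97.2 (median 72.8) in vehicle mice and from 94.5 to 148 (median 123) in fluoxetine mice. Its log2 change was 0.74 ± 0.10 (adjusted p = 4.35e-06), with 0.57 in females and 0.91 in males. Sox18, a SOX factor of endothelial identity, ranged from 105 to 176 (median 134) and from 164 to 275 (median 225), at 0.66 ± 0.10, with 0.65 in females and 0.66 in males. For both genes the groups overlapped only at their edges. Mfsd2a, the lipid transporter of the blood-brain barrier, rose by 0.23 (adjusted p = 0.0122). Kdr, the main VEGF receptor, did so by 0.34 (adjusted p = 0.0215, lost without fluoxetine female 4 or vehicle male 2), while Foxf2 and Sox17 lost their calls in 13 and 15 of the 20 fits without 1 library. The defining markers of the cell type did not pass: Cldn5, Pecam1 and Cdh5 changed by 0.07 to 0.13.

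The summed level of the 28 endothelial markers ran from 18873 to 22709 (median 20795) on vehicle and from 19715 to 27935 (median 21689) on fluoxetine, with the highest sum in fluoxetine female 4. Its part in the 6 calls was not tested. Without fluoxetine female 4 or vehicle male 2 the count that rose was 3, and in the fit without fluoxetine female 4 another 1 fell. With Gm10221 as a term the count that rose was 4, in a fit where 48 of all 17925 genes rose. Over males alone it was 2, Foxq1 and Sox18, beside 0.0502% of all genes. The list median was 0.14 in both. For all 6 genes fluoxetine male 3 held the lowest value of the fluoxetine mice.

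Kcnj2, an inward rectifier potassium channel, did not overlap between groups: 354 to 541 (median 475) on vehicle and 643 to 912 (median 672) on fluoxetine. The log2 change was 0.66 ± 0.11 (adjusted p = 8.82e-05), with 0.59 in females and 0.73 in males. Kcnj2 was the 1 of 59 potassium channel genes that passed, beside 3.54% of all genes. Smad6, an inhibitor of BMP signalling, ranged from 20.2 to 50.2 (median 33.7) and from 45.3 to 81.2 (median 58.8), at 0.86 ± 0.15 (adjusted p = 0.000153). Its relative Smad7, an inhibitor of TGF-beta signalling, fell by 0.42 ± 0.08 (adjusted p = 0.000515). These were the 2 of 23 BMP pathway genes that passed, beside 3.54% of all genes. The pair of inhibitory Smads thus moved in opposite directions, and the targets Id1 to Id4 did not pass.

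Flrt3, an adhesion protein that binds latrophilins at synapses, ranged from 517 to 674 (median 638) on vehicle and from 741 to 923 (median 812) on fluoxetine, without overlap. Its log2 change was 0.41 ± 0.06 (adjusted p = 7.52e-06), with 0.53 in females and 0.30 in males, where the adjusted p was 0.21. It was the 1 of 14 FLRT, latrophilin and teneurin genes that passed, beside 3.54% of all genes. Klf6, a zinc finger factor, did not overlap either, at 1586 to 1878 (median 1665) on vehicle and 1881 to 2223 (median 2086) on fluoxetine, and its changes of 0.30 in females and 0.29 in males each passed.

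Of 79 subunits of the respiratory chain coded in the nucleus, 10 rose and 0 fell, beside 1.46% of all genes that rose, with a list median of 0.06. All 10 passed in females and 0 in males. With Gm10221 as a term 0 passed, in a fit where 48 of all 17925 genes rose, and the list median was 0.08. Over males alone 0 passed, beside 0.0502% of all genes that rose, and it was 0.06. Cox5a, a subunit of cytochrome c oxidase, ranged from 1828 to 2264 (median 2077) on vehicle and from 2205 to 2723 (median 2424) on fluoxetine, at 0.23 ± 0.04 (adjusted p = 0.000252). Its change was 0.35 in females and 0.12 in males, and it came to 0.16 (adjusted p = 0.102) with Gm10221 as a term. Mpc2, of the mitochondrial pyruvate carrier, stood at 0.37 in females and 0.15 in males and at 0.17 (adjusted p = 0.118) with the term. Of 13 mitochondrially coded genes mt-Atp6 alone passed, at 0.73 ± 0.19, with 1.25 in females, 0.20 in males and 0.12 (adjusted p = 0.761) with the term. Scand1, a SCAN-domain gene, moved in the same libraries: it stood at 0.997 in females and 0.40 in males, and at 0.23 (adjusted p = 0.365) with the term.

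**Figure D3:**
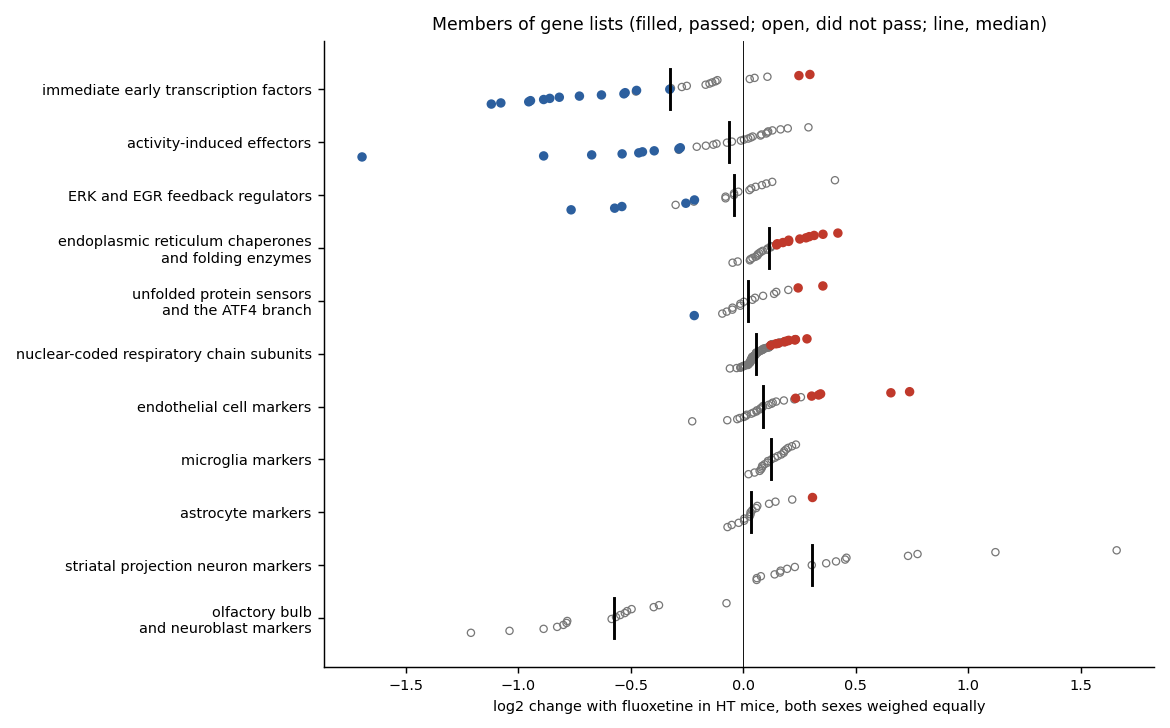
Log2 change with fluoxetine in heterozygotes, both sexes weighed equally, for each measured member of 11 gene lists (filled, passed; open, did not pass; blue, lower; red, higher; black line, list median). Among the lists with members that passed, the immediate early factors have the lowest median and the effector Arc the lowest single value, the folding genes lie nearly all to the right of zero, and the striatal and olfactory bulb markers are shifted with no member that passed.

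Few sterol genes passed. Insig1, which retains the sterol sensor in the endoplasmic reticulum, fell by 0.24 ± 0.05 (adjusted p = 0.00256), from 1718 to 2233 (median 1814) on vehicle to 1405 to 1774 (median 1601) on fluoxetine. Of 20 enzymes of cholesterol synthesis 17 lay below zero, with a median of −0.09, and 1 passed, Lss at −0.17, which closes the sterol ring, beside 2.09% of all genes that fell. The mean of the list overlapped between groups, at −0.20 to 0.13 on vehicle and −0.15 to 0.0016 on fluoxetine.

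Of 24 glucocorticoid receptors and targets 5 fell and 2 rose, beside 2.09% and 1.46% of all genes, with a median of 0.05. The 5 were Per1, Ddit4, Dusp1, Errfi1 and Sgk1, of which Per1, Dusp1, Errfi1 and Sgk1 are also members of the clock, effector or feedback lists. The 2 that rose were Mertk, a phagocytic receptor, and Zbtb16, a zinc finger factor, at 0.20 and 0.40, with adjusted p = 0.0323 and 0.0469. Mertk lost its call in 11 of the 20 fits without 1 library and Zbtb16 in 15.

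In the serotonin system, where the drug acts, 1 of 17 measured genes passed, beside 3.54% of all genes. Maob, a monoamine oxidase found largely in glia, went from 550 ± 61.5 to 661 ± 66.6 (SD, n = 10), at 0.27 ± 0.07 (adjusted p = 0.0152). It lost its call when the library highest in olfactory bulb markers was left out of each group. The receptor genes Htr1a and Htr2a stood at 0.17 and 0.15 (adjusted p = 0.236 and 0.195), Htr1b at 0.01 and Htr2c at −0.16. The transporter gene Slc6a4 was not analysed here. Of 15 neurotrophin signalling genes 1 passed, again beside 3.54% of all genes. It was the CREB coactivator Crtc2 at −0.22 (adjusted p = 0.00399), with −0.34 in females and −0.10 in males.

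At synapses no change passed for 22 glutamate receptor genes, 26 postsynaptic scaffolds and kinases or 14 GABA-A subunits, whose list medians lay between 0.01 and 0.02. Homer1, a scaffold, stood at 0.20 (adjusted p = 0.207). A p that misses the threshold does not show that these levels are equal.

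Cell type and region markers gave the following. Of 19 microglia markers 0 passed, though all 19 lay above zero with a median of 0.13, and their sum ran from 14587 to 16775 on vehicle and from 15711 to 21278 on fluoxetine, highest in fluoxetine female 4. Of 15 astrocyte markers 1 passed and of 14 pericyte and muscle markers 1, beside 3.54% of all genes. They were the factor Sox9 at 0.30 (lost without fluoxetine female 4 or vehicle male 2) and the channel subunit Abcc9 at 0.34 (lost in 3 of the 20 fits). Myelin, precursor, choroid plexus, meningeal and red blood cell lists had 0 that passed. All 16 olfactory bulb markers lay below zero, with a median of −0.58 and 0 that passed. Their sum ran from 3476 to 20939 (median 11503) on vehicle and from 2666 to 19892 (median 6857) on fluoxetine. All 17 striatal markers lay above zero, with a median of 0.30 and 0 that passed. The mean log2 difference of the striatal list from the vehicle mean was −0.11 to 0.27 on vehicle and −0.02 to 1.71 on fluoxetine. Fluoxetine males 3 and 4 stood highest, at 1.71 and 1.36, with male 5 next at 0.38. The olfactory sums differ several-fold between mice of one group, and the groups overlapped over nearly their whole range.

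With the mean of the olfactory bulb markers as a term in the fit, chosen after seeing the data, 773 genes passed and 576 of the 635 were among them. Under it 13 immediate early factors and 9 effectors fell, 11 folding genes rose, and 6 endothelial and 10 respiratory genes rose, the same counts as without it. Of 25 interferon response genes all lay below zero with a median of −0.25 and 1 passed, Irf9 at −0.37, beside 3.54% of all genes. Their sum was 10062 in vehicle male 1 and at most 4006 in the fluoxetine mice, whose median of 3726 was close to the vehicle median of 3831.

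**Figure D4:**
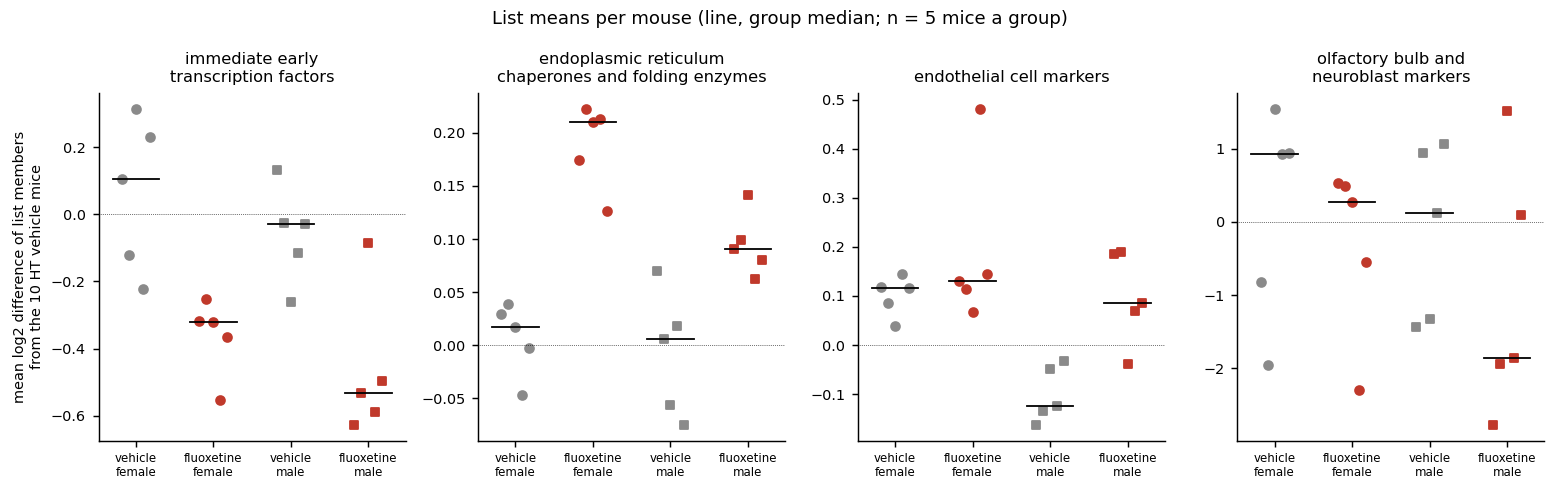
Mean log2 difference of the members of 4 gene lists from the mean of the 10 vehicle heterozygotes, 1 point per mouse (circles, females; squares, males; grey, vehicle; red, fluoxetine; line, group median; n = 5). Immediate early factors lie at −0.63 to −0.09 in fluoxetine mice with male 3 highest, folding genes at 0.06 to 0.22, and olfactory bulb markers spread over more than 4 units with the groups overlapping.

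The sexes were compared next. Of 192 genes that passed as higher in females 167 were also above zero in males, where their median was 0.09 against 0.27 in females. Of 255 that passed as lower in females 233 were below zero in males, with medians of −0.31 in females and −0.11 in males. In the other direction all 28 genes that passed as lower in males were below zero in females, with medians of −0.59 and −0.55, and 8 of the 9 higher ones were above zero. Signs matched for 63.1% of all genes. The 2 sexes have separate treated and control mice. The genes were chosen by their values in 1 sex, so the medians above cannot be set against each other as effect sizes. Genes that passed in both sexes numbered 29, of which 24 were lower and 5 higher, and 0 passed in opposite directions.

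The test of the difference between the sexes called 2 genes (0.0112%), Gm10221 itself and Rpl37rt, a ribosomal protein retrogene. Rpl37rt ran from 498 to 628 in fluoxetine females against 314 to 405 in vehicle females, and from 233 to 376 in fluoxetine males against 310 to 428 in vehicle males. Its difference was 0.93 ± 0.18 (adjusted p = 0.0388), and as a copy of Rpl37 its reads may be shared with that gene. An unadjusted p under 0.05 in limma was held by 764 of the 17925 genes, a smaller share than the 0.05 that chance alone gives. For the same difference edgeR called 0 and DESeq2 8. The smaller number of calls in males is therefore not shown to be a smaller effect: for Hspa5 the changes of 0.50 and 0.21, and for Cox5a those of 0.35 and 0.12, did not differ by this test.

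**Figure D5:**
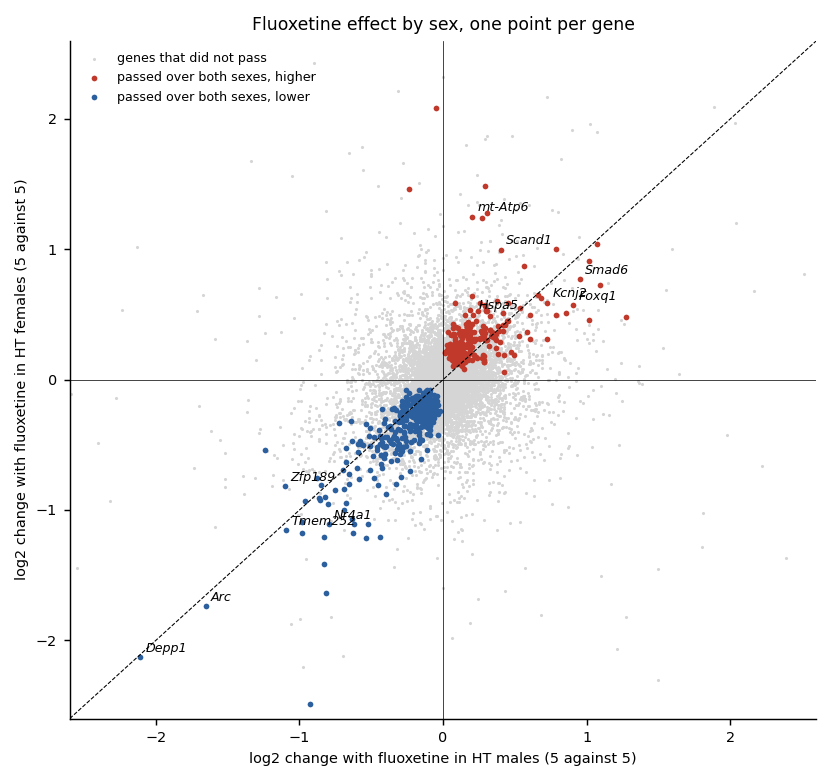
Log2 change with fluoxetine in heterozygous females (vertical) against males (horizontal), 1 point per gene, for genes that passed over both sexes (red, higher; blue, lower) and the rest (grey), with the line of equal change dashed; Gm10221 is left out, and 18 genes, 2 of which passed, lie outside the axes. Depp1 and Arc lie on the dashed line, mt-Atp6 and Scand1 lie above it, and the bulk of the passing genes lies closer to zero in males.

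The same drug in wild-type mice gave 248 genes that passed (1.38%). Of the 261 genes higher in heterozygotes 233 were above zero in wild type, with a median of 0.08 against 0.20, and of the 374 lower ones 341 were below zero, with −0.12 against −0.23. Signs matched for 56.3% of all genes, and the 2 genotypes share no mice. Gm10221 reads were present in 3 of the 5 wild-type fluoxetine females and in 0 wild-type vehicle libraries or fluoxetine males. The series also holds mice on lithium, whose libraries entered the fit. Every lithium library held Gm10221 reads: 5 of 5 female and 4 of 4 male heterozygotes, and 5 of 5 wild types of each sex. The feature was thus neither confined to fluoxetine nor present in all fluoxetine mice, and its cause was not tested. The 635 were chosen by their heterozygous values, so these medians cannot be set against each other as effect sizes.

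The difference between genotypes called 0 genes (0%) by limma. The smallest adjusted p was 0.232, and edgeR called 0 and DESeq2 2. An unadjusted p under 0.05 in limma was held by 1128 of the 17925 genes, where chance alone gives a share of 0.05. For the genes described above the wild-type changes were −0.67 for Zfp189, −0.45 for Per1, −1.50 for Depp1, −1.40 for Arc and −0.64 for Nr4a1, each of which passed there. Klf10 stood at −0.97 and Chrm4 at −0.57. The immediate early factors in wild type counted 10 lower and 1 higher of 27, beside 0.915% and 0.469% of all genes there. Hspa5 stood at 0.19 (adjusted p = 0.14) and Manf at 0.11 (adjusted p = 0.16) in wild type, and Foxq1 and Sox18 stood at 0.23 and 0.24 without passing. Of the genes with a standard symbol, Mpc2 had one of the 3 smallest p-values of this test, with 0.26 in heterozygotes and −0.02 in wild type, a difference of 0.28 ± 0.07 (adjusted p = 0.731). Ier5, at 0.11 and −0.36, and Cbx7, at −0.13 and 0.09, were the others, and none passed the test of the difference.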

How the data were processed

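The data are bulk RNA sequencing of prefrontal cortex from TruSeq Stranded mRNA libraries, per the labels' protocols. The authors deposited one table of normalized values for 18088 genes, a signal in which each library's reads are scaled by its size factor. The tools were DESeq2 1.19.11, R 3.6.0 and Salmon 0.11.2 on GRCm38, per the submitters' processing notes, with options not given in the sources used here. Values were whole multiples of one step per library (0.788 to 1.30), so whole reads could be recovered (100% whole within 0.01), though 11 columns have a step near 1. Ensembl identifiers were matched to symbols of GENCODE vM21 for 18077 genes, and promoters are RefSeq's (GRCm38.p6). Repeat libraries of a group differed beyond counting error (chi-square over its degrees of freedom, 3.37 to 31 in 40 pairs).

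limma 3.58.1 in R 4.3.3 was fitted with a trend to log2(value + 1) of all 58 libraries in 12 groups of genotype, drug and sex, on genes with 10 or more in at least 4 libraries, two-sided, with Benjamini-Hochberg adjustment; the script was tested on simulated data. A fold on this scale understates the change of low genes. Alternatives were edgeR 4.0.16 and DESeq2 1.42.0 on recovered reads (654 and 795 genes called), other filters, pseudocounts and scalings, a replicate block, terms for Gm10221 and for olfactory bulb markers, and leaving out libraries. Genes were named by rule: Tanc2, the 15 smallest p-values in each direction, the 6 largest changes in each direction at a mean of 50 or more, up to 6 members of each list, and the 3 smallest p-values of each interaction and sex, passing over gene models without a standard symbol; other list members named were chosen after their values were seen. Some items are not reported here. The comparison, lists and tests were chosen with earlier results of these data known.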

Additional observations from a re-analysis of the deposited data

Results flagged for a closer look

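Of 176 groups of 5 mice (44 named genes in 4 groups each), 13 held 1 mouse whose gap to the nearest of the others was large for the group's range by Dixon's test, and chance flags about 1 group in 20. Fluoxetine male 3 was the high mouse for 3 genes that fell: Arc at 2772 normalized reads against 636 to 1124 in the other 4, Nr4a1 at 2007 against 1003 to 1218, and Zfp189 at 199.6 against 156 to 166. Fluoxetine female 4 was apart for Tanc2, at 7424 against 8150 to 8424, for the potassium channel Kcnj2, at 810.0 against 643 to 679, and for Sik1, at 210.0 against 298 to 330. Fluoxetine female 1 was low for Arl4d, at 254.0 against 307 to 327, and fluoxetine female 5 for Dnajc3, at 2034 against 2186 to 2228. Among vehicle mice, male 1 was high for Depp1, at 113.8 against 52.4 to 58.8, and low for Flrt3, at 620 against 664 to 674. Female 2 was high for Dnajb11, at 1716 against 1537 to 1589, female 3 for Smap1, at 3248 against 2936 to 2991, and female 4 for Ctla2a, at 245 against 94.5 to 135.

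The fluoxetine effect in heterozygotes differed between the sexes for 2 genes by the test of that difference. Gm10221 had a female effect above the male one by 6.93 on the log2 scale, as its reads occur in the fluoxetine females and in none of the other 15 libraries. Rpl37rt had a female effect above the male one by 0.93.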

How the results depend on the processing

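Of 102 genes named or counted in a list that passed, 74 kept their call in all 20 fits that left out 1 library. The 635 calls came to 184 with Gm10221 as a term and sex additive, and 165 of the 184 are among the 635. Additive sex alone gave 639. The male effect refitted on the 31 libraries without Gm10221 reads gave 45, where fewer libraries enter, against 37 in the main fit. Of the 45, 44 are among the 635. Those of the 635 that were tested kept their direction in the other settings (631 were tested under the stricter filter). The exceptions were the term, where 634 did, and the male refit, where 631 did. Under its own term Gm10221 turned to −0.19. Leaving out 1 library gave 377 (without vehicle male 5) to 687 genes, with 401 without vehicle female 5 and 406 without fluoxetine male 2; 438 passed without the pair of libraries highest in olfactory markers, 752 with length and GC trends removed, and 637 after TMM rescaling. In females 741 passed when only the 20 libraries were fitted and 705 with the olfactory term, against 447; leaving out 1 library gave 195 (without vehicle female 5) to 463, with 203 and 234 without fluoxetine females 5 and 2, and 256 and 297 without vehicle females 3 and 4. In males 1 library fewer gave 12 (without fluoxetine male 2) to 41, with 18 without fluoxetine male 1, and 24, 22, 22 and 20 without vehicle males 1, 2, 3 and 5. The sex difference called 0 genes in edgeR, 8 in DESeq2, 1 with the replicate block and 1 to 5 with 1 library left out (5 without fluoxetine female 4); the genotype difference called 2 in DESeq2 and 0 to 0 with 1 library left out. Replicate numbers share only a number: of 10 pairs 2 correlated over 0.1 (−0.338 to 0.188) and 1 library correlated best with its own number; with the replicate block 706 genes passed over both sexes, 490 in females, 35 in males and 0 between genotypes. The additive sex, olfactory, and length and GC settings were chosen after seeing the data. The causes were not tested. Within a sex a median SE of 0.0968 limits what 5 against 5 libraries can show.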

Other observations

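Some genes that passed are not described above. Csrnp1, a nuclear factor on the immediate early list, did not overlap between groups and stood at −0.73, and Elmsan1, a subunit of a histone deacetylase complex, did not overlap either and stood at −0.37, with −0.36 in females and −0.38 in males. Tmem135, a peroxisomal and mitochondrial membrane protein, rose by 0.15 ± 0.03 without overlap. Klf15, which glucocorticoids and fasting induce in other tissues, fell by 0.24. The neuropeptide gene Cck stood at 0.29 and the upper-layer factor Pou3f1 at 0.25, but their calls were lost in 6 and 12 of 20 fits without 1 library. The same held for Ctla2a, at 0.65 (adjusted p = 0.0461), and for the pseudogene Eif4a-ps4, at −1.71 (adjusted p = 0.0478), each lost in 15 of 20, and reads of the pseudogene may come from its parent gene.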
